A study of Homo sapiens with 6 samples.

Results

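Of the 2007 ribosomal protein pseudogenes in the RefSeq annotation of GRCh38.p14, 8 are described here: RPL3P4, RPL10P16, RPL13P12, RPL18AP3, RPLP1P4, RPS11P5, RPS17P16 and RPS18P5. They were selected on the peak positions of the series' 4 lists, which hold 1743 peaks in all, so their peaks are a description and carry no test. All 8 had their peak in a single list, that of the second RBMX precipitation. RPL13AP5 and RPL34P12, the ribosomal protein pseudogenes with a peak in another list, are not among the 8. The lack of a peak at the 8 in the other lists may therefore come from the selection and is not a result. In the second RBMX list peaks overlapped 9 of the 2007 ribosomal protein pseudogenes (0.448%), 33 of 17051 pseudogenes of any kind (0.194%) and 152 of 59716 genes (0.255%). Nothing is read from the first share, since the pseudogenes were picked for it. The study precipitated Flag-tagged proteins from 293T cells, a human embryonic kidney line, with anti-Flag beads after transfection with Flag-RBMX or Flag-RPA1. All cells, inputs included, had been in camptothecin, an inhibitor of topoisomerase I, for 24 hours. RBMX, also called hnRNP G, binds RNA and takes part in splicing. RPA1 is a subunit of replication protein A, which coats single-stranded DNA. Each protein had 2 precipitations with a peak list each, and the 2 inputs were not analysed here. The tagged proteins were expressed from transfected genes, and the labels do not say whether the precipitations came from separate cultures. Precipitations with the endogenous proteins or from cells without camptothecin were not analysed here.

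Ribosomal protein genes encode the proteins of the large (RPL) and small (RPS) ribosomal subunits and are transcribed at high levels in dividing cells. Their short, abundant mRNAs have been copied into the genome many times by the reverse transcriptase of LINE-1 elements. The copies, called processed pseudogenes, lack the introns of the parent gene and lie far from it. Many remain close to the parent mRNA in sequence, so a sequencing read from a spliced copy of that mRNA, or from a sister pseudogene, can be placed on one of them.

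The annotation types all 8 as pseudogenes, none of them as transcribed, and does not say how each arose. Parent genes are described here for 5 of them, RPL3P4, RPL10P16, RPL13P12, RPLP1P4 and RPS18P5. The lengths of these 5, 479 to 749 bp, stood against genomic spans of 3388 bp (RPLP1) to 6742 bp (RPL3) for their parent genes, which contain introns. None of these 5 parents lies on the chromosome of its copy. The copies lie on 7 chromosomes, with RPL18AP3 and RPS11P5 on chromosome 12, and 5 derive from large subunit and 3 from small subunit genes. The sequences of the pseudogenes were not used here, so their identity to the parent mRNAs was not measured. How reads that fit several copies were placed is not given in the sources used here, and the assignment of every peak below to 1 copy is therefore uncertain.

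The RBMX list of replicate 2 held 598 peaks from 6664290 filtered tags and the RPA1 list 527 from 6889249. Replicate 1 was sequenced more deeply, with 20199680 tags and 258 peaks for RBMX and 20089972 tags and 360 peaks for RPA1. Replicate 2 used MACS2 with a p-value cutoff of 1e-12 and 1 background level for the whole genome. Replicate 1 used MACS 1.4.2 with a cutoff of 1e-05 and a local background, so caller and replicate cannot be told apart. No list sets a peak against the input at the same place. Positions below are hg38, and the height of a replicate 2 peak is the number of tags, each extended to 200 bp, that cover its summit. RPM is that number divided by the library's filtered tags and multiplied by 1000000. Intervals are exact 95% Poisson intervals of the tag count, which cover counting error only and take no account of the summit being the highest point.

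Large subunit pseudogenes had the highest and the lowest of the 8 peaks. RPL3P4 (chromosome 14, 98972823 to 98973301) is a copy of RPL3, whose protein lies near the catalytic centre of the ribosome. Its peak ran from 98972922 to 98973173, was 252 bp wide and had 25 tags at the summit, or 3.75 RPM (interval 2.43 to 5.54). This was the highest of the 8, with the authors' fold of 16.95 over the genome background and a −log10 p of 31.8. RPL13P12 (chromosome 17, 17383355 to 17384063), a copy of RPL13, had the widest peak, 516 bp from 17383499 to 17384014, with 24 tags or 3.60 RPM (interval 2.31 to 5.36). Its −log10 p was also 31.8, because the caller computed p from the scaled pileup cut to a whole number, and the deposited pileups of 23.98 and 23.02 both gave the same whole number.

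RPLP1P4 (chromosome 2, 176200871 to 176201383) is a copy of RPLP1, an acidic protein of the ribosomal stalk that recruits translation factors. Its peak from 176200945 to 176201172 was 228 bp wide with 22 tags, or 3.30 RPM (interval 2.07 to 5.00). RPL10P16 (chromosome 19, 12643212 to 12643960) is a copy of RPL10, a protein that joins the large subunit late in its assembly. Its peak from 12643480 to 12643880 was 401 bp wide with 21 tags, or 3.15 RPM (interval 1.95 to 4.82). RPL18AP3 (chromosome 12, 104265269 to 104265892) had the lowest peak. It ran over 200 bp from 104265482 to 104265681 with 16 tags, or 2.40 RPM (interval 1.37 to 3.90), a fold of 11.09 and a −log10 p of 18.7.

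Small subunit pseudogenes lay between these. RPS17P16 (chromosome 22, 32039465 to 32039944) had a peak that spanned 200 bp from 32039533 to 32039732 with 22 tags, or 3.30 RPM (interval 2.07 to 5.00). RPS18P5 (chromosome 3, 101576446 to 101576990), a copy of RPS18 from the head of the small subunit, had a peak of 229 bp from 101576696 to 101576924 with 20 tags, or 3.0 RPM (interval 1.83 to 4.63). RPS11P5 (chromosome 12, 132825681 to 132826237) had a peak of 200 bp from 132825780 to 132825979 with 19 tags, or 2.85 RPM (interval 1.72 to 4.45). The intervals of all 8 overlapped each other, so no order among them is resolved at this depth.

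Every one of the 8 peaks lay wholly inside its pseudogene. The lower edge of the peak was 68 bp (RPS17P16) to 268 bp (RPL10P16) from the lower-coordinate end of the pseudogene, and the upper edge 49 bp (RPL13P12) to 258 bp (RPS11P5) from the other end. The peaks covered 32.1% (RPL18AP3) to 72.8% (RPL13P12) of the pseudogene. Their summits lay at 37.9% (RPS11P5) to 71.4% (RPL10P16) of its length, counted from the lower coordinate because the annotation table gives no strand. All 8 summits were thus in the central part, and neither end of any pseudogene was under a peak. Among all 41 pairs of a pseudogene of any kind and an RBMX replicate 2 peak, the peak was wholly inside in 32 (78.0%). Both counts include the 8 and RPL13AP5, whose 9 peaks were all inside.

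**Figure D1:**
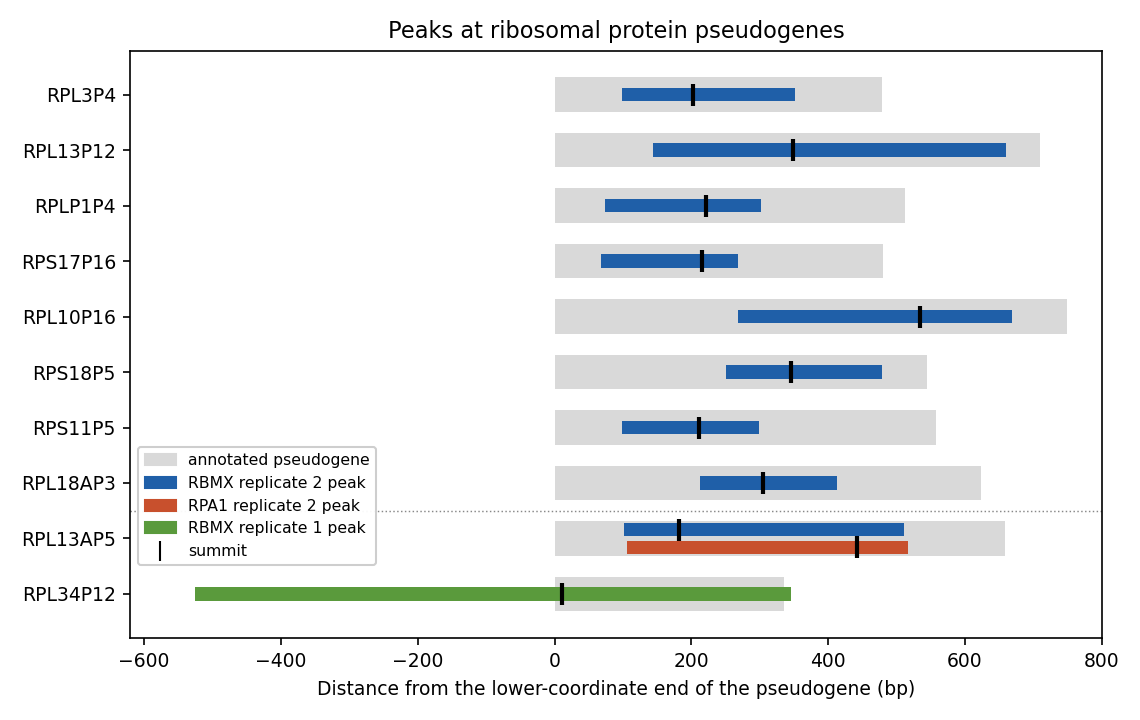
Position of each peak (coloured bar) and its summit (black tick) on the annotated pseudogene (grey bar), in bp from the pseudogene's lower-coordinate end. The 8 pseudogenes above the dotted line each hold 1 RBMX replicate 2 peak inside their borders, RPL13AP5 holds a peak of both proteins, and the RBMX replicate 1 peak at RPL34P12 reaches 526 bp past its lower end.

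The surroundings of the pseudogenes differed. RPL18AP3 lies inside the body of TXNRD1, which encodes thioredoxin reductase, and inside the antisense transcript TXNRD1-AS1. RPS11P5 lies inside GOLGA3, the gene of a Golgi protein, and RPS18P5 inside PCNP, the gene of a nuclear protein. These 3 of 8 (37.5%) compare with 769 of all 2007 ribosomal protein pseudogenes (38.3%) inside a protein-coding gene; exons and introns are not given in the table. None of the other 5 lies wholly inside an annotated gene. Partial overlap was not examined, and the distances given are to the nearest gene without overlap. RPL10P16 is 68 bp from the non-coding LOC105372279, RPS17P16 2266 bp from LINC02558, and RPLP1P4 9964 bp from HOXD1, a homeobox gene. RPL3P4 is 26124 bp from LOC107984696, and RPL13P12 35692 bp from NT5M, which encodes a mitochondrial nucleotidase. The next RBMX replicate 2 peak was 0.439 Mb away for RPS11P5 and 5.00 Mb (RPL13P12) to 81.7 Mb (RPL3P4) away for the other 7. That list holds only 432 peaks on the chromosomes and the mitochondrial genome, and the spacing of its other peaks was not compared.

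All 8 peaks were in the lower part of the RBMX replicate 2 list. Their summits had 16 to 25 tags (median 21.5), against a median of 26 and a maximum of 399 over the 598 peaks, and none exceeded that median. By the authors' fold they ranked from 311 (RPL3P4) to 547 (RPL18AP3). They were not at the calling limit. The deposited p-values are those of a Poisson distribution with the genome-wide mean of the scaled library: this returned the deposited −log10 p within 0.001 for all 575 RBMX and 505 RPA1 summits where it could be computed. Under it, 12 tags in the RBMX library gave a −log10 p of 12.8 and passed, and 11 tags gave 11.4 and did not. RPL18AP3 was 4 tags and RPL3P4 13 tags above that limit. The smallest summits in the list had 13 tags, in 3 peaks, and 33 of 598 peaks (5.52%) had fewer tags than RPL18AP3. Width was nearer to its limit: the caller dropped regions under 200 bp, and 3 of the 8 peaks (RPL18AP3, RPS11P5 and RPS17P16) had exactly that width, as did 30 of all 598.

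**Figure D2:**
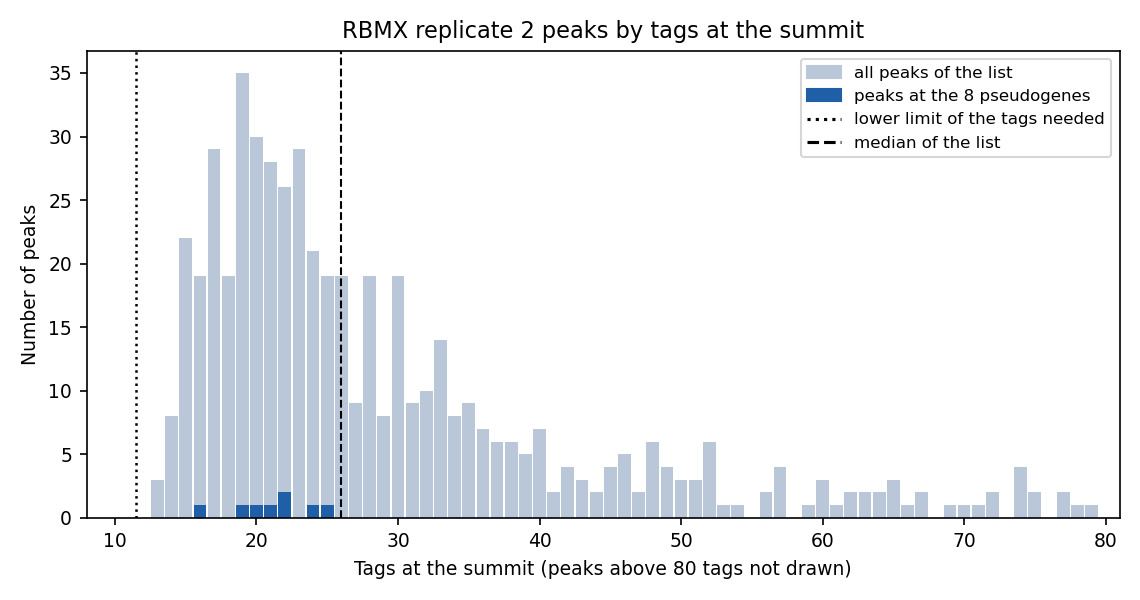
Number of RBMX replicate 2 peaks (vertical axis) by tags at the summit (horizontal axis, in tags), for the peaks of the list (light; the tallest are outside the axis) and those at the 8 pseudogenes (dark). The dark bars lie between 16 and 25 tags, right of the 12 tags needed for a call (dotted line) and left of the list's median of 26 (dashed line).

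No RPA1 replicate 2 peak overlapped any of the 8, and the nearest was 0.439 Mb away, at RPS11P5. RPL13AP5, the other ribosomal protein pseudogene with an RBMX peak in replicate 2, had an RPA1 peak and is not among the 8. The lack of RPA1 peaks at the 8 may therefore follow from their selection, and nothing is read from it. RPA1 peaks of that replicate overlapped 1 of 2007 ribosomal protein pseudogenes (0.0498%), 19 of 17051 pseudogenes (0.111%) and 119 of 59716 genes (0.199%). The RPA1 list had a higher limit in proportion to depth. Its library was scaled down to a smaller input, and 15 tags, or 2.18 RPM, were needed against 1.80 RPM for RBMX. The smallest summit it lists had 16 tags, or 2.32 RPM. All 8 RBMX summits were above both levels, from 1.03 times (RPL18AP3) to 1.62 times (RPL3P4) the smallest listed RPA1 summit. At the same RPM they would have had 16.5 (RPL18AP3) to 25.8 (RPL3P4) tags in the RPA1 library. By summit height alone, therefore, all 8 would have passed there. Counting error leaves this less firm: the lower bound of the interval was above 2.18 RPM for RPL3P4 and RPL13P12 and below it for the other 6. Summit height also says nothing of width, and whether the 3 peaks of minimum width would keep 200 bp at the higher limit was not tested.

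**Figure D3:**
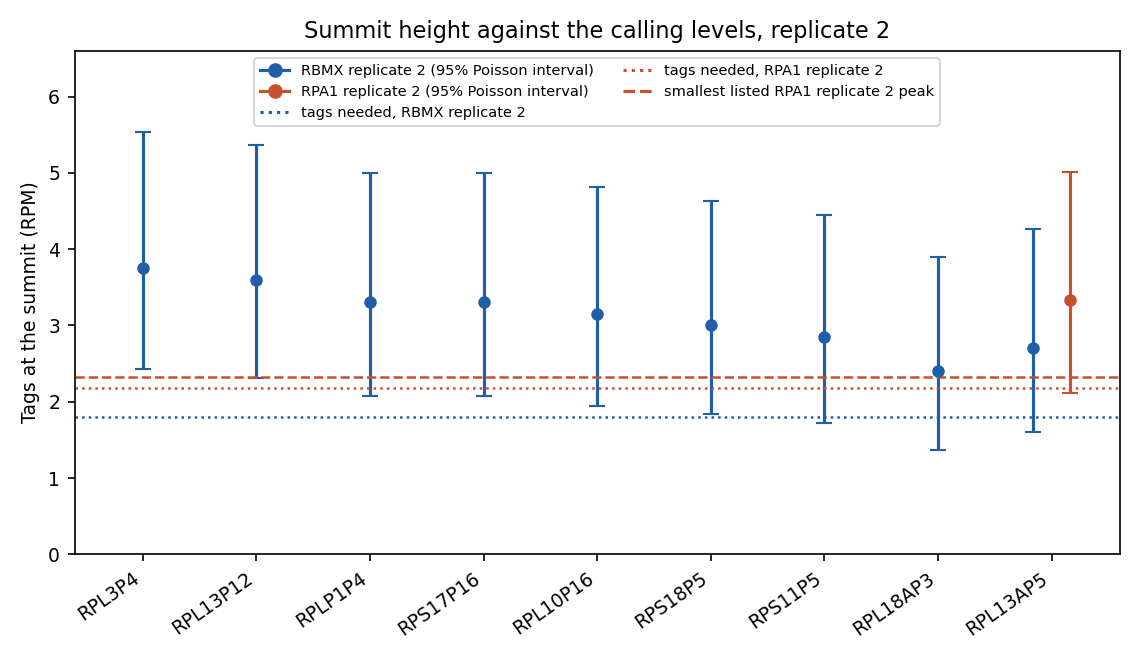
Tags at the summit in RPM (vertical axis) with exact 95% Poisson intervals, for the 8 pseudogenes and RPL13AP5; lines mark the tags needed in each list and the smallest listed RPA1 peak. All points are above the RPA1 lines at 2.18 and 2.32, but the intervals of 6 of the 8 reach below 2.18.

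The RPA1 level at the 8 is not bounded by the lack of a call, since a summit of 15 or more tags over a stretch of less than 200 bp would not be listed. Other RBMX peaks of the same height were compared with the RPA1 list. On the chromosomes and the mitochondrial genome, 158 other RBMX replicate 2 peaks had 16 to 25 tags, and 88 of them (55.7%) were overlapped by an RPA1 peak, against 318 of 432 peaks (73.6%) of any height. At those 88, the RPA1 summit had 1.23 times the RPM of the RBMX summit in the median (quartiles 1.09 and 1.38, lowest 0.735). These 88 had to pass the RPA1 cutoff, which removes low ratios. The other 70 of 158 (44.3%) had no RPA1 peak. These shares describe the list, and what lies behind the lack of an RPA1 call at the 8 was not tested. Each protein has 1 such library, and the RBMX and RPA1 levels at the pseudogenes were not tested against each other.

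Neither replicate 1 list had a peak at any of the 8. RBMX replicate 1 peaks overlapped 1 of 2007 ribosomal protein pseudogenes (0.0498%), 16 of 17051 pseudogenes (0.0938%) and 171 of 59716 genes (0.286%), and those of RPA1 replicate 1 overlapped 0 of 2007, 16 of 17051 (0.0938%) and 274 of 59716 (0.459%). The nearest replicate 1 peaks were 0.590 to 28.0 Mb away for RBMX and 0.510 to 14.1 Mb away for RPA1. At the RPM of replicate 2, the summits would correspond to 48.5 to 75.8 tags in the RBMX library of replicate 1 and 48.2 to 75.4 in that of RPA1. Peaks of these lists began at 14 tags, counted over the whole peak, and 189 of 258 RBMX peaks (73.3%) had fewer than 48.5. Tags were 50 bp long in replicate 1 and 150 bp long in replicate 2, and the part of tag length and of the local background was not tested. The 8 RBMX peaks thus rest on 1 library.

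Among the other 1999 ribosomal protein pseudogenes, 1 (0.05%) had an RBMX peak in replicate 2. The 8 left out were selected on their peaks, so nothing is read from this share. RPL13AP5 (chromosome 10, 96750266 to 96750923) is annotated as a transcribed pseudogene of RPL13A, whose protein also has a role in silencing inflammatory mRNAs. Its RBMX peak from 96750367 to 96750776 had 18 tags, or 2.70 RPM (interval 1.60 to 4.27), and lay inside the pseudogene like the 8. It was the only ribosomal protein pseudogene with an RPA1 replicate 2 peak, from 96750372 to 96750782 with 23 tags, or 3.34 RPM (interval 2.12 to 5.01). The peaks shared 405 bp, and their summits were 260 bp apart. The RPA1 level was 1.24 times the RBMX level, with overlapping intervals. Its RBMX summit was lower than those of all but RPL18AP3 among the 8.

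In replicate 1 the only ribosomal protein pseudogene with a peak was RPL34P12 (chromosome 4, 122815782 to 122816117), a copy of RPL34 that lies 10565 bp from FGF2, the gene of a growth factor. The RBMX peak was 872 bp wide, from 122815256 to 122816127, and held 24 tags over its whole width, with a −log10 p of 7.20 and a fold of 7.69, rank 96 of 258. It covered the pseudogene of 336 bp and reached 526 bp past its lower end and 10 bp past its upper end, so that 38.5% of the peak lay in the pseudogene. At RPL34P12 there was no peak in RPA1 replicate 1 or in either replicate 2 list.

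The genes that encode ribosomal proteins had no peak. None of the 80 ribosomal protein genes and none of the 9 ribosomal protein-like genes such as RPL3L and RPL10L was overlapped by a peak in any of the 4 lists, and widening each gene by 500 bp on both sides added none. Peaks overlapped only 0.199% (RPA1 replicate 2) to 0.459% (RPA1 replicate 1) of all 59716 genes per list. At such shares a set of 80 genes would often have no peak, so nothing is read from this lack. The peaks were at single copies within large families: no family had more than 1 copy under an RBMX replicate 2 peak. RPL3, RPL13 and RPLP1 have 13 annotated pseudogenes each, RPS18 has 14 and RPL10 has 19. The families with the most copies, RPL21 with 137 and RPL23A with 95, had no copy with a peak in that list, and in all 72 of 81 families had none.

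The copies under a peak were compared in length with the other copies of their family for the 5 parents described here and for RPL13A. The length of RPL10P16, 749 bp, was exceeded by 1 and that of RPL13P12, 709 bp, by 2 of the other copies of the same parent. RPL10P16, RPL13P12, RPLP1P4 and RPS18P5 were longer than the median of their family. RPL3P4 was not: at 479 bp it was shorter than 11 of the 12 other RPL3 copies, whose family median is 1281 bp. Nor was RPL13AP5, at 658 bp against a family median of 660 bp, with 16 longer and 8 shorter copies. Against all 2007 copies the 8 were ordinary, with a median of 551 bp against 539 bp (quartiles 420.5 and 760). A peak of at least 200 bp could not lie inside the 32 copies (1.59%) that are shorter than that.

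**Figure D4:**
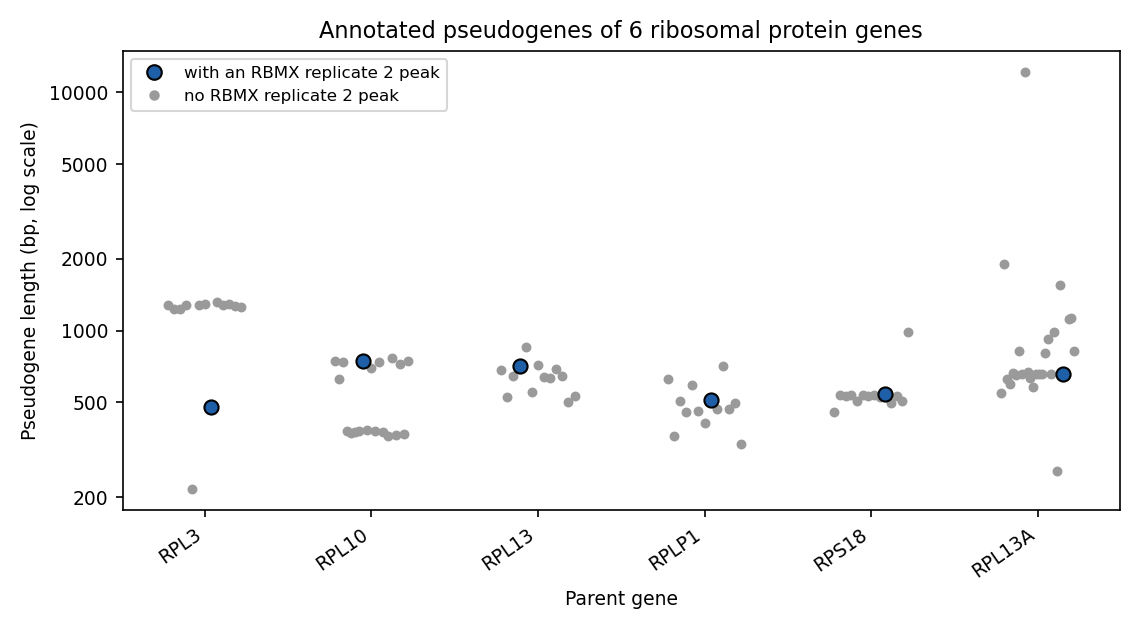
Length in bp (log scale) of every annotated pseudogene of RPL3, RPL10, RPL13, RPLP1, RPS18 and RPL13A, by parent gene; large points carry an RBMX replicate 2 peak and the horizontal spread within a family has no meaning. RPL10P16 and RPL13P12 are near the top of their families, RPL13AP5 is close to the median of its family, and RPL3P4 at 479 bp is below most RPL3 copies.

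Some pseudogenes of other families had peaks of similar height in the same list. The rest of the 33 pseudogenes of any kind with a peak in that list are not described here. The abundance of the parent mRNAs was not measured, and no copy of ACTB had a peak. These families were chosen after the peaks at their copies had been seen, so their share is a description only. Of 176 annotated copies of EEF1A1, ACTB, GAPDH and the ferritin genes, 5 had an RBMX replicate 2 peak (2.84%), with 18 to 26 tags, and 4 of the 5 peaks lay inside the pseudogene. They were EEF1A1P5, a copy of a translation elongation factor gene, FTH1P7, FTH1P10 and FTH1P11, copies of ferritin heavy chain, and GAPDHP1, a copy of a glycolytic enzyme gene. As among the ribosomal protein copies, 1 of them, EEF1A1P5, also had an RPA1 replicate 2 peak (0.568% of the 176), with 22 tags or 3.19 RPM, and none had a peak in replicate 1. The GAPDHP1 peak, the one with 18 tags, had its summit at 39787991, past the end of the pseudogene at 39787828. The RBMX peak at EEF1A1P5 was 1497 bp wide, against at most 516 bp at the 8.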

How the data were processed

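Peak lists of 4 precipitations were analysed, each called on 1 library. The build was hg38, per the submitters' processing notes, which list deepTools 3.4.1, Bowtie2, MACS and MACS2 2.2.4. Per the file headers, MACS 1.4.2 was run for replicate 1 without a control and with a local background from windows reaching 10000 bp. Its deposited columns are tag counts of each peak, a score of minus 10 log10 p (divided here by 10) and a fold, the ratio to that background. For replicate 2, MACS2 2.2.4 was run with the input as control, local background off and at most 1 tag per position, per the file headers. The deposited signal is the pileup at the summit scaled to the smaller library, and the deposited −log10 p and q are the caller's. Divided by the scale, every pileup came within 0.02 of a whole number of tags. Depths were 20199680 and 20089972 tags in replicate 1 and 6664290 and 6889249 in replicate 2.

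Peaks and RefSeq gene bodies (GRCh38.p14, 59716 genes on chromosomes) overlapped when they shared at least 1 bp, computed with SciPy 1.17.1, NumPy 2.4.6 and pandas 2.3.3 under Python 3.11.15; figures used matplotlib 3.10.9. The overlap was tested on simulated intervals. Ribosomal protein pseudogenes were taken by symbol. Genes named are the 8 pseudogenes, every other ribosomal protein gene or pseudogene with a peak, 5 of the parents, hosts and nearest genes; other families were added after their values were seen. Results on the other parent genes and their families are not reported here. Members and lists were chosen with earlier results of these data known. Replicate number 1 was given in accession order. No test between groups was made. The alternatives were other overlap rules, a stricter threshold, other scales and leaving out a replicate. Unplaced and alternate sequences and the inputs were not used here for the pseudogenes.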

Additional observations from a re-analysis of the deposited data

How the results depend on the processing

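The 8 RBMX replicate 2 peaks were still counted under a midpoint rule, 50% of the peak inside, widening by 500 bp, and a −log10 p of at least 15. These rules could not remove any of them and are no check of the 8. Each peak lay wholly inside its pseudogene, and the lowest −log10 p among the 8 was 18.7. No other list gained a peak at any of the 8 under these rules, and none could. The nearest peak of another list was 0.439 Mb away, far beyond the widening of 500 bp, and the other rules only remove peaks. Counting members with a peak in any RBMX list gave 8 without RBMX replicate 1 and 0 without RBMX replicate 2. The count of other ribosomal protein genes or pseudogenes with a peak in RBMX replicate 1 was 1 (RPL34P12) and fell to 0 under the midpoint rule, 0 with 50% of the peak inside and 0 at a −log10 p of at least 10. All 8 summits reached the smallest RPA1 replicate 2 peak on the scaled pileup as deposited too. The libraries were scaled by different factors, 0.959 for RBMX and 0.681 for RPA1. Deposited pileups are thus not on the same scale, and this alternative adds no separate support. With the lower Poisson bound in place of the count, an alternative chosen after seeing the data, 1 reached that peak and 2 reached the tags needed for a call. No paired analysis was possible because no result came from a test and the replicate numbers of the labels do not pair the samples. Depth limits the order among the 8, whose intervals all overlap.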
